A study of Mus musculus with 4 samples.

Results

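Klf2, Klf3, Klf6, Klf13, Btg1, Btg2, Tsc22d3 and Tob1 are 8 of the 32285 genes listed in the mRNA matrices of a single-cell study of mouse germinal centre (GC) B cells, and they were taken by name as regulators tied to lymphocyte quiescence. All 8 had counts in the 9692 cells kept, from 759 for Tob1 to 56346 for Btg1. Klf2, Klf3, Klf6 and Klf13 are Krüppel-like zinc-finger transcription factors that bind GC-rich and CACCC-type elements. Klf2 holds lymphocytes in a resting state and drives the egress receptor S1pr1, Klf3 is chiefly a repressor, and Klf6 is an immediate-early responsive factor. Btg1, Btg2 and Tob1 belong to the BTG/TOB family of antiproliferative adaptors, which recruit the CCR4-NOT deadenylase to mRNA and so shorten poly(A) tails. Tsc22d3 encodes GILZ, the glucocorticoid-induced leucine zipper, which is a target of both the glucocorticoid receptor and FOXO factors. A GC holds light zone (LZ) cells that test antigen and T cell help, dark zone (DZ) cells that divide, and cells leaving as memory cells or plasma cells and plasmablasts (PC/PB).

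In the mouse genome (GRCm38, GENCODE M21), Klf2 (ENSMUSG00000055148) lies at chr8:72319033-72321656 on the plus strand, Klf3 (ENSMUSG00000029178) at chr5:64803388-64832901 on the plus strand and Klf6 (ENSMUSG00000000078) at chr13:5861482-5870394 on the plus strand. Klf13 (ENSMUSG00000052040) lies at chr7:63886351-63938915 on the minus strand. Btg1 (ENSMUSG00000036478) lies at chr10:96617006-96622809 on the plus strand, Btg2 (ENSMUSG00000020423) at chr1:134075170-134079120 on the minus strand and Tob1 (ENSMUSG00000037573) at chr11:94211454-94215495 on the plus strand. Tsc22d3 (ENSMUSG00000031431) is X-linked, at chrX:140539528-140600659 on the minus strand. The matrices also list the Btg1 pseudogenes Btg1-ps1 and Btg1-ps2, each with 0 counts.

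The study asked how loss of DOCK8, a guanine nucleotide exchange factor of the actin cytoskeleton, alters GC B cells. CD45.1+ wild-type recipient mice received mixtures of HEL-specific B cells carrying the MD4 B-cell receptor transgene, were immunized with sheep red blood cells coupled to hen egg lysozyme (HEL), and gave spleens on day 8. The CD45.2+ donor cells carried a B-cell restricted BCL2 transgene (BCL2.Tg) and were Dock8wt/wt in 3 mice (WT group) and Dock8cpm/cpm, an ENU-induced mutation described as null, in 3 mice (DOCK8-deficient group), while the CD45.1+ donor cells in the same mice were Dock8wt/wt without BCL2.Tg in both groups. HEL-binding CD95+ B cells of the 6 mice were marked with 6 hashtag antibodies, pooled, and sequenced as 1 mRNA library for the CD45.2+ sort and 1 for the CD45.1+ sort. Sort, library, BCL2.Tg and CD45 allele therefore cannot be told apart, and the Dock8wt/wt CD45.2 cells were male and the Dock8cpm/cpm cells female, so that sex and genotype cannot be told apart in that sort either.

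The CD45.2 sort kept 2007, 2607 and 1672 cells in WT group mice 1 to 3 but only 57, 44 and 101 cells in the DOCK8-deficient mice, and the CD45.1 sort kept 395, 519, 947, 496, 339 and 508. A simpler hashtag rule, which needs a 3-fold lead of 1 hashtag, kept 2388, 3486 and 2087 CD45.2 cells in the WT group mice and 229, 160 and 481 in the DOCK8-deficient mice, so the number of Dock8cpm/cpm cells depends on how hashtag doublets were called. Totals per mouse ran from 342465 to 18036775 UMIs, and 38 cell barcodes occurred in both libraries. Dock8 itself was read in both genotypes outside the plasma-cell and T-cell clusters, at 112, 119.7 and 105 CPM (UMIs of a gene scaled to a common library total) in Dock8wt/wt and 105, 109 and 95.8 CPM in Dock8cpm/cpm CD45.2 cells. The transcript level thus does not check the genotype labels. Clusters were built without the 8 genes and named from marker lists, and the sorted cells included PC/PB clusters with 1464 CD45.2 and 697 CD45.1 cells and a T-cell-like cluster with 63 and 44 cells. EarlyGC1, EarlyGC2, Activated/Memory, LZ1, LZ2 to LZ4 and DZ follow the state names of the study. A further state, LZtoPrePC/Memory, held 203 CD45.2 and 18 CD45.1 cells, with a median of 1804 UMIs and 5.73% mitochondrial UMIs. It is part of the non-plasma sums. In the CD45.2 sort it held the highest mean of Btg2 (304 CPM) and Tob1 (19.6 CPM). It came next to the highest state for Klf3, Klf6, Klf13 and Tsc22d3. LZ2 to LZ4 rested on 1 cluster with 524 CD45.2 and 1005 CD45.1 cells.

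Promoter sequence is shown for the 3 members whose levels varied with state and whose window held an element that few promoters hold. The sequences are RefSeq promoters (GRCm38.p6), 5′ to 3′ on the gene's strand, running from 250 to 31 bases before the RefSeq start site, with the matched element in capitals.
Klf2, chr8:72318812-72319031, plus strand: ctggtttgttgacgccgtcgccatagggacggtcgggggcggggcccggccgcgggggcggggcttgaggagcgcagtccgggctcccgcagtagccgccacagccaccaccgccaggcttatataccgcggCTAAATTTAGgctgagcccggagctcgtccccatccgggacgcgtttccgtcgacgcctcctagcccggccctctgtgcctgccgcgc
Btg1, chr10:96616751-96616970, plus strand: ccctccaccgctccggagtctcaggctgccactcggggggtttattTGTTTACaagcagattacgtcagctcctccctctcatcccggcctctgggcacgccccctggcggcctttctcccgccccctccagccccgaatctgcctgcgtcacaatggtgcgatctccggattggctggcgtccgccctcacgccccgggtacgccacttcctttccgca
Btg2, chr1:134079186-134079405, minus strand: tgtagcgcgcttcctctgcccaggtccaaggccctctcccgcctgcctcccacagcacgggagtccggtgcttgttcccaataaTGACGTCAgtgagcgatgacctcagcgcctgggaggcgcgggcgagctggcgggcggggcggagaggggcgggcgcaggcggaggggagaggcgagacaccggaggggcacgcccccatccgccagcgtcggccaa
The capitals in the Klf2 window match the MEF2 consensus, 118 bases before the start, which was found on either strand in 855 of 32851 windows of this length (2.6%) and in none of the other 7 members. The Btg1 window held the FOXO-type element TGTTTAC, 204 bases before the start, as did 2.81% of all windows and none of the other 7 members. The Btg2 window held the cAMP-response element TGACGTCA, 166 bases before the start, as did 1.14% of windows. CCACCC, a KLF-type element, occurred in the Klf3, Tsc22d3 and Tob1 windows and in 25% of all windows, and GGGCGG occurred in all 8 and in 28.5% of all windows. A match describes the letters only.

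Klf2 spanned the widest range of levels among the 8 genes in both sorts. Levels are given as CPM of the summed UMIs of a state in 1 mouse, as mean ± SD over mice with at least 20 cells of that state (n = 3 Dock8wt/wt mice for CD45.2, and n = 6 for CD45.1 except n = 4 for the early states). In the CD45.1 sort Klf2 stood at 1403 ± 75.4 CPM in EarlyGC2, 1131 ± 103 CPM in EarlyGC1 and 871 ± 79.5 CPM in Activated/Memory cells. It then stood at 119 ± 25.4 CPM in LZ2 to LZ4, 30.01 ± 8.93 CPM in DZ and 6.07 ± 3.71 CPM in PC/PB cells, the last from 36 counts over 6 mice. The fold from the highest to the lowest state was 231, and no 2 neighbours in this order had overlapping mice. In the CD45.2 sort the order was similar but the range was 22.5-fold, from 1369 ± 149 CPM in EarlyGC2 to 93.0 ± 5.02 CPM in DZ and 60.8 ± 23.3 CPM in PC/PB cells, and 2 pairs of neighbours overlapped.

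Klf3 followed the same split between early or memory cells and the GC and plasma states. In the CD45.1 sort it stood at 144 ± 29.5 CPM in EarlyGC1, 120 ± 40.6 CPM in EarlyGC2 and 102 ± 27.8 CPM in Activated/Memory cells against 5.14 ± 3.53 CPM in LZ2 to LZ4, 4.96 ± 2.17 CPM in PC/PB and 3.57 ± 3.35 CPM in DZ cells. The first 3 states overlapped one another, as did the last 3. No Klf3 UMI was counted in LZ2 to LZ4 cells of WT group mouse 1, where 3 counts would have been 7.64 CPM, nor in DZ cells of WT group mouse 2, where they would have been 4.38 CPM. These limits cover counting error only. In the CD45.2 sort Klf3 stood between 176 ± 13.4 CPM in EarlyGC2 and 13.3 ± 1.32 CPM in DZ cells, a 13.2-fold range.

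Klf6 and Klf13 varied far less. Klf6 stood between 53.2 ± 16.1 CPM in EarlyGC1 and 12.9 ± 4.30 CPM in PC/PB cells of the CD45.1 sort, and its DZ level of 41.4 ± 8.32 CPM was next to its LZ2 to LZ4 level of 41.3 ± 9.19 CPM. All 5 pairs of neighbours overlapped. Klf13, a ubiquitous family member, stood between 160 ± 13.3 CPM in EarlyGC1 and 64.8 ± 8.11 CPM in PC/PB cells of the CD45.1 sort and between 176 ± 2.54 CPM in EarlyGC1 and 72.8 ± 1.25 CPM in DZ cells of the CD45.2 sort. Its ranges were 2.47-fold and 2.42-fold.

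Btg1 was read in every state and was lowest in PC/PB cells of both sorts. In the CD45.1 sort it stood at 1669 ± 192 CPM in EarlyGC1, 899 ± 103 CPM in LZ2 to LZ4, 379 ± 27.5 CPM in DZ and 25.1 ± 16.3 CPM in PC/PB cells. In the CD45.2 sort the same states stood at 1999.8 ± 224, 1288 ± 205, 478 ± 29.9 and 213 ± 97.6 CPM. DZ and PC/PB cells were below every other state in both sorts, with no overlap of mice. Btg2 did not follow Btg1 in PC/PB cells. It stood at 169.8 ± 19.1 CPM there in the CD45.1 sort, next to 171 ± 23.2 CPM in Activated/Memory cells, and was lowest in DZ cells at 49.6 ± 2.22 CPM. In the CD45.2 sort Btg2 stood at 198 ± 16.3 CPM in PC/PB and 78.8 ± 14.6 CPM in DZ cells.

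Immunoglobulin transcripts took 33.1% to 34.1% of the UMIs of PC/PB cells on average, which lowers the CPM of every other gene there. In the other B-cell states the mean share was 1.91% to 4.59%. With immunoglobulin genes left out of the totals, Btg2 stood at 256 CPM in CD45.1 and 296 CPM in CD45.2 PC/PB cells. The place of PC/PB cells in the Btg2 order thus depends on these totals. Leaving immunoglobulin out moved CD45.2 PC/PB cells from below to above EarlyGC1 cells. Tob1 was sparse, between 13.6 ± 10.2 and 6.86 ± 2.19 CPM in the CD45.1 sort, with all 5 pairs of neighbouring states overlapping, and no order of states can be read from it.

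Tsc22d3 resembled Klf3 in its order of states. In the CD45.1 sort it stood at 112 ± 26.5 CPM in EarlyGC1 and 91.9 ± 22.97 CPM in EarlyGC2 against 20.6 ± 5.82 CPM in LZ2 to LZ4, 14.01 ± 4.99 CPM in DZ and 8.98 ± 3.28 CPM in PC/PB cells. Unlike Klf3, it overlapped between Activated/Memory cells, at 12.2 to 61.1 CPM over mice, and LZ2 to LZ4 cells of that sort. In the CD45.2 sort its highest level was 156 ± 39.0 CPM in EarlyGC2, and DZ, PC/PB and LZ1 cells shared the lowest levels with 17.5 CPM in LZ1. The plot of levels by state shows these orders mouse by mouse.

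**Figure D1:**
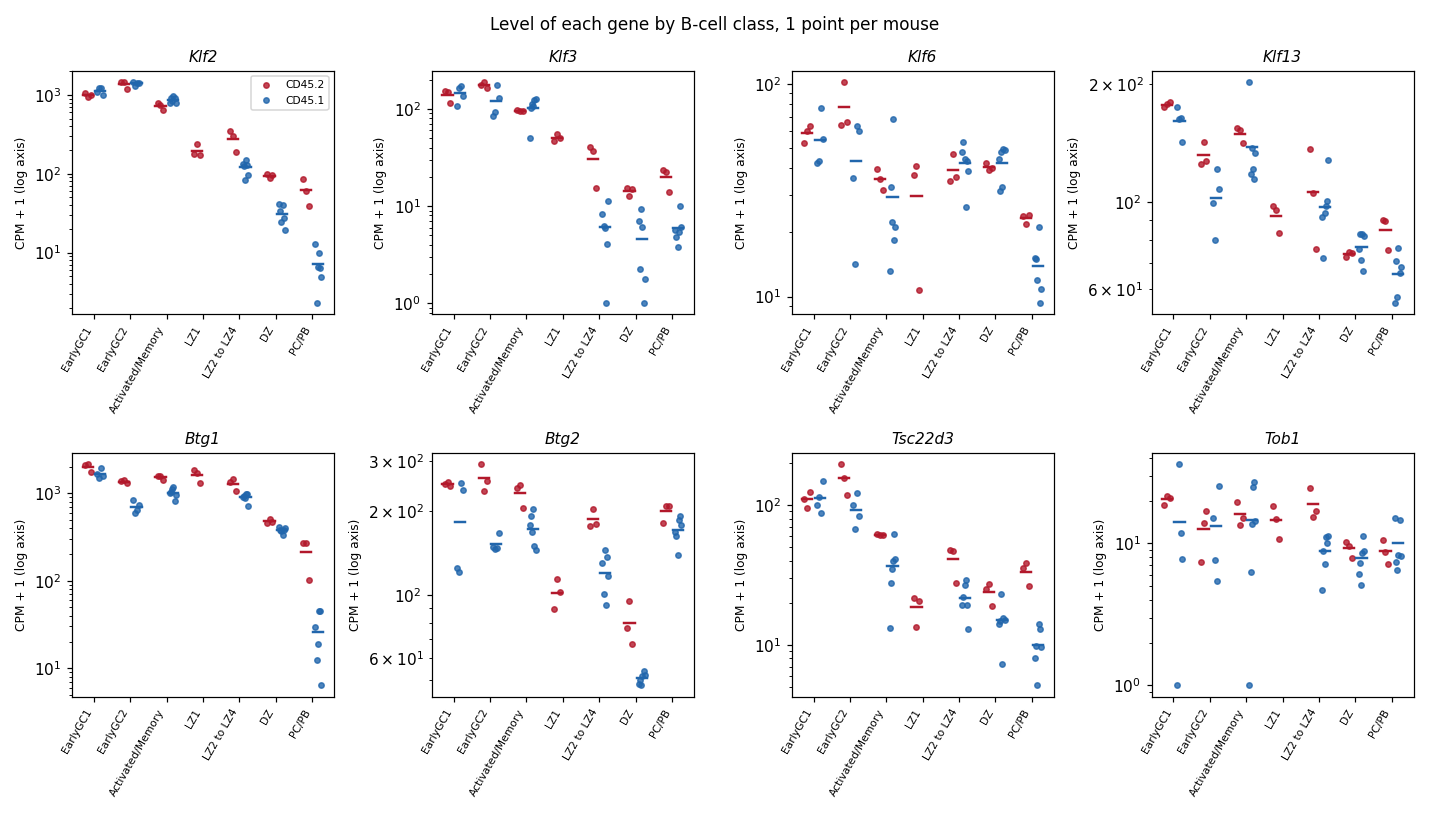
Level of each gene by B-cell state on a log axis of CPM + 1, with 1 point per mouse, a bar for the mean, red for the 3 Dock8wt/wt CD45.2 mice and blue for the CD45.1 sort. Klf2 runs from 1403 CPM in EarlyGC2 to 6.07 CPM in PC/PB cells of the CD45.1 sort, while Tob1 stays between 13.6 and 6.86 CPM. LZtoPrePC/Memory cells are not drawn.

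The genes whose levels most resembled each member over the states were found by Pearson correlation of log2 CPM over 14 profiles of sort and state, among 5183 genes. These profiles share 2 libraries, and the coefficients are a description. Klf3 was closest to S1pr1 (r = 0.99) and Ccr7 (r = 0.986), which encode receptors that guide lymphocyte exit and migration. Klf2 was closest to the homeobox gene Hhex (r = 0.981), then Serpinb1a (r = 0.98) and Ceacam1 (r = 0.978). Btg1 was closest to Gm31243 (r = 0.991) and H2-Oa (r = 0.987), a class II chaperone chain of B cells, and Btg2 to the adaptor gene Sla (r = 0.954). Tsc22d3 was closest to the kinase gene Stk24 (r = 0.951) and Klf6 to the mRNA decay factor Zfp36l2 (r = 0.966). Among the members, Klf2 and Klf3 correlated at 0.92 and each with Tsc22d3 at 0.88, but Btg1 and Btg2 at only 0.25.

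In cells outside the plasma-cell and T-cell clusters, 7 of the 8 genes were lower by more than 0.9 log2 units in S and G2M cells than in G1 cells of the CD45.2 sort. Phases were called from 94 S and G2M genes after every cell was thinned to 2000 UMIs, no member is among those genes, and the counts of the 3 Dock8wt/wt mice were compared with the mouse as a block. Klf2 stood at 879.6, 765 and 673 CPM in G1 cells of mice 1 to 3 and at 259.9, 218 and 172 CPM in S and G2M cells, a log2 fold change of −1.93 (SE 0.0757, edgeR quasi-likelihood test with Benjamini-Hochberg adjustment, adjusted p = 3.08e-18). Klf3 stood at 117, 108 and 93.1 CPM against 34.1, 29.95 and 23.6 CPM, a change of −1.95 (SE 0.0826, adjusted p = 1.78e-17). In both genes every G1 value was above every cycling value.

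Klf13 stood at 155, 144 and 140.4 CPM in G1 cells against 85.1, 86.8 and 73.9 CPM (log2 fold change −0.93, SE 0.0739, adjusted p = 1.24e-11). Klf6 stood at 46.3, 54.3 and 34.9 CPM in G1 cells and 42.5, 39.6 and 40.5 CPM in S and G2M cells. These ranges overlapped, and the change of −0.24 (SE 0.0925, adjusted p = 0.026) was lost without WT group mouse 1 (−0.26), without WT group mouse 2 (−0.10), under DESeq2 (−0.23), without the filter on low counts (−0.21) and without the mouse block (−0.25).

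Btg1 stood at 1775, 1764 and 1419.8 CPM in G1 cells against 715, 749 and 604 CPM in S and G2M cells (log2 fold change −1.35, SE 0.0746, adjusted p = 5.18e-15). Btg2 stood at 235, 225 and 208 CPM against 104, 122 and 84.6 CPM (−1.20, SE 0.0807, adjusted p = 3.49e-13). Tob1 stood at 18.6, 16.8 and 16.2 CPM against 9.64, 9.30 and 7.21 CPM (−1.06, SE 0.149, adjusted p = 5.63e-07). Tsc22d3 stood at 87.9, 77.0 and 71.1 CPM against 37.4, 34.6 and 24.8 CPM (−1.37, SE 0.0888, adjusted p = 1.59e-13). The phases did not overlap in any of these 4 genes. All 8 members were thus called lower, where 63.4% of 10276 genes were called in either direction and 31.1% were called lower.

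The 7 genes tested in the CD45.1 sort of all 6 mice had the same sign of change. Klf2 had a lowest, median and highest value of 413, 629 and 689 CPM in G1 cells against 76.7, 109 and 167 CPM in S and G2M cells, a log2 fold change of −2.50 (SE 0.0862, edgeR adjusted p = 1.41e-26). Klf3 had 36.6, 66.4 and 95.3 CPM against 5.40, 12.5 and 17.8 CPM (−2.48, SE 0.168, adjusted p = 1.16e-16). Btg1 had 917, 992 and 1083 CPM against 441, 462 and 495 CPM (−1.24, SE 0.0539, adjusted p = 5.07e-23). None of these overlapped between phases.

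Btg2 (−1.30, SE 0.0925, adjusted p = 5.32e-16), Tsc22d3 (−1.49, SE 0.177, adjusted p = 1.49e-09) and Klf13 (−0.64, SE 0.0978, adjusted p = 3.53e-07) fell as well. Klf6 had 32.5, 42.4 and 52.3 CPM against 29.1, 42.2 and 46.9 CPM and a change of −0.16 (SE 0.143, adjusted p = 0.361). Tob1, with 75 counts in G1 cells and 42 in S and G2M cells, was not tested. Of the 7 members tested 6 were called lower, where 54% of 6999 genes were called and 26% were called lower.

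**Figure D2:**
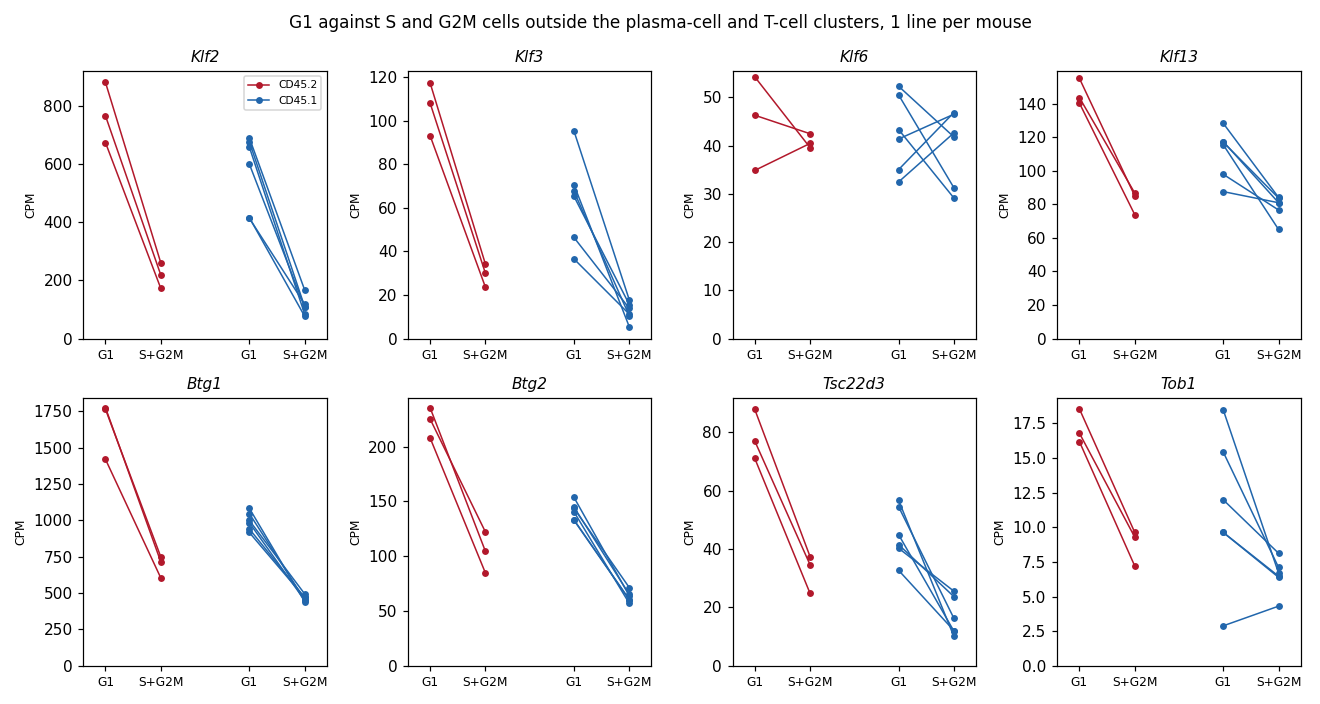
CPM of each gene in G1 and in S and G2M cells outside the plasma-cell and T-cell clusters, with 1 line per mouse, red for the 3 CD45.2 mice and blue for the 6 CD45.1 mice. All lines descend for Klf2, Klf3, Klf13, Btg1, Btg2 and Tsc22d3, whereas Klf6 has lines in both directions.

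Genes of the same pathways were taken from lists rather than by how they moved. All 7 KLF2-linked trafficking receptor genes fell in S and G2M cells of the CD45.2 sort (list median −1.75), among them S1pr1 at −1.94 and Gpr183 at −1.67, and all 7 fell in the CD45.1 sort (median −2.40). Of 16 FOXO-linked genes 13 fell and 2 rose (median −0.90), with Ddit4, an mTORC1 inhibitor, at −1.74 and Txnip, an inhibitor of glucose uptake, at −1.28. Of 12 subunits of CCR4-NOT, the complex with which BTG and TOB proteins act, 5 rose and 1 fell (median 0.09), with Cnot9 at 1.42 and Cnot6 at 0.79, where 32.3% of all genes tested were called higher. Of 6 other KLF genes 1 rose, Klf10 at 1.68, and 2 fell, Klf9 at −0.88 and Klf7 at −0.52. Tob2 was the 1 of 2 other BTG/TOB genes that fell, at −0.27.

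The 3 other TSC22 domain genes all fell, led by Tsc22d1 at −1.60. Of 7 glucocorticoid-response genes 3 rose and 2 fell, with Fkbp5 at 0.99. Of 11 p53 target genes, a class to which Btg2 belongs, 7 fell, with Cdkn1a at −1.81. Of 8 immediate-early genes, which tissue dissociation can raise, 5 fell and 2 rose, with Ier2 at −0.88 and Dusp1 at 2.21. The B-cell markers fell for 6 of 7, and the part of these other genes in the members' differences was not tested.

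Phase and state went together. Of the DZ cells 1.205% (CD45.2) and 3.597% (CD45.1) were in G1, against 85.5% and 93.8% of EarlyGC1 and 87.0% and 91.2% of Activated/Memory cells. No member was called within LZ2 to LZ4, EarlyGC1 or Activated/Memory cells. Hardly any gene was called there either (0% to 0.243% of those tested). These tests therefore cannot tell members without a phase difference from phases that were poorly separated. In LZ2 to LZ4 cells of the CD45.2 sort Klf2 stood at 365, 308 and 179 CPM in G1 against 324, 275 and 197 CPM in S and G2M cells (log2 fold change −0.13, SE 0.133, edgeR adjusted p = 0.915), and 0 members were called, with 0.0247% of 4055 genes called. Tob1 stood at 32.8, 16.8 and 19.3 CPM in G1 against 7.19, 7.87 and 10.1 CPM there, the latter from 1, 4 and 2 counts, and was not tested.

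In LZ2 to LZ4 cells of the CD45.1 sort Klf2 had a lowest, median and highest value of 89.0, 141 and 156 CPM in G1 against 54.0, 81.7 and 133 CPM. It was lower in S and G2M cells of 6 of 6 mice, with a change of −0.68 (SE 0.197) at an adjusted p of 0.15, and passed the threshold under the 3-fold hashtag rule (−1.38), without the filter on low counts (−0.80) and without thinning (−0.96). Btg1 changed by −0.20 there (SE 0.083, adjusted p = 0.536), and 0 of 4 members tested were called, with 0.243% of 2881 genes called.

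In EarlyGC1 cells of the CD45.2 sort 0 of 5711 genes were called (0%; 240 at an unadjusted p under 0.05), with Klf2 at −0.06 (SE 0.109) and Btg1 at −0.02. In Activated/Memory cells of that sort Klf2 stood at 779, 746 and 644 CPM in G1 against 915, 809.5 and 645 CPM in S and G2M cells (0.11, SE 0.0727), and 0 members were called, with 0.029% of 6890 genes called. The phases did not overlap for Klf13 at 154.6, 153.9 and 147 CPM in G1 against 142, 136 and 90.3 CPM (−0.35, SE 0.148, adjusted p = 0.849), for Tob1 at 19.97, 13.03 and 15.3 CPM against 10.5, 7.98 and 5.31 CPM (−1.06, SE 0.494, adjusted p = 0.876), or for Klf6 at 38.3, 32.6 and 28.2 CPM against 41.97, 47.9 and 47.8 CPM (0.45, SE 0.257, adjusted p = 0.967). Tob1 rested on 4, 2 and 2 counts in S and G2M cells. How many of all genes had no overlap between these phases was not counted. The EarlyGC1 and Activated/Memory tests were added after the pooled result was seen. Sums over states do not tell fewer cells of a state from less RNA per cell of that state.

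PC/PB cells gave calls, but this class is not a single state. It joins a cluster of cycling plasmablasts with clusters of plasma cells, so cluster and phase were not told apart in this test. Klf2 stood at 97.3, 65.7 and 46.4 CPM in G1 PC/PB cells of the CD45.2 sort against 49.0, 47.3 and 23.5 CPM in S and G2M cells, lower in each mouse (−0.89, SE 0.15, edgeR adjusted p = 3.63e-05). Klf3 stood at 26.7, 24.8 and 15.6 CPM against 11.7, 13.9 and 8.64 CPM (−1.04, SE 0.238, adjusted p = 0.00206). Btg1 stood at 319, 279.9 and 108 CPM against 144, 235 and 85.8 CPM (−0.67, SE 0.124, adjusted p = 0.000143). Mouse 3 was lowest in all 3 genes in both phases, and the phases overlapped over mice for Klf2 and Btg1. Without the mouse block the Klf2 (−0.95, adjusted p = 0.0647) and Btg1 (−0.70, adjusted p = 0.291) calls were lost, and the Klf3 call was lost under DESeq2 (adjusted p = 0.185). Btg2 changed by −0.29 (SE 0.111, adjusted p = 0.0823), with a call without WT group mouse 1 (−0.36), and Tsc22d3 by −0.49 (SE 0.179, adjusted p = 0.0659). In all 3 of the 8 members were called, all lower, where 12.1% of 7986 genes were called and 4.01% were called lower.

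**Figure D3:**
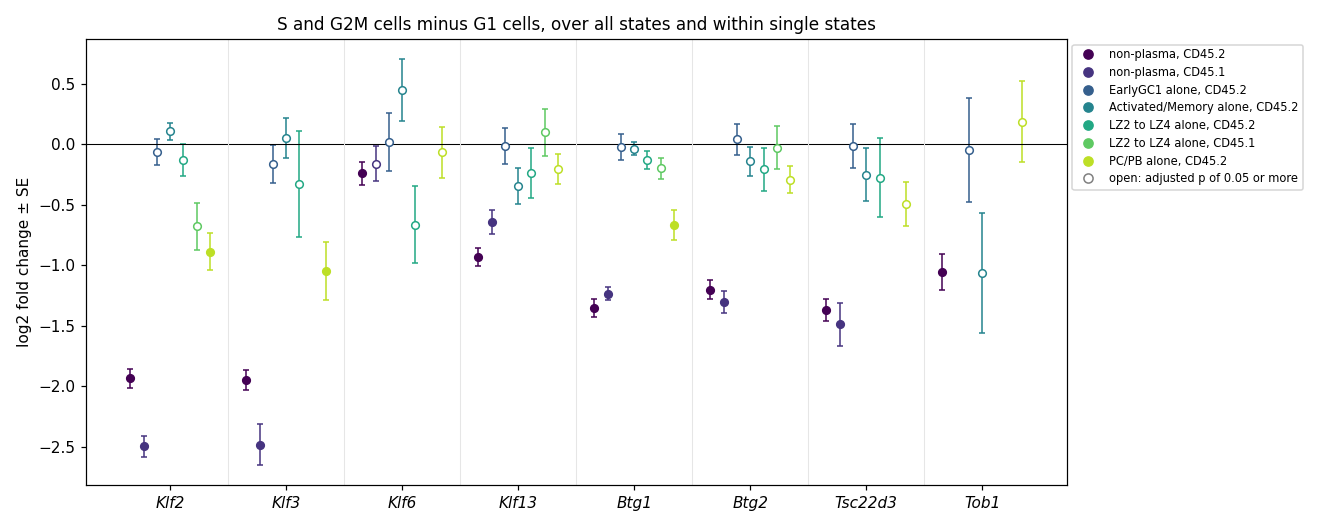
Log2 fold change of S and G2M over G1 cells for each gene (points, with bars of ± SE), with filled points for an adjusted p under 0.05. It is shown over all non-plasma states, within single states and within PC/PB cells, which join several clusters. Klf2 sits at −1.93 and −2.50 over all states of the 2 sorts but at −0.06 within EarlyGC1 and 0.11 within Activated/Memory cells. Within EarlyGC1 and Activated/Memory cells only 0% and 0.029% of all genes tested were called.

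Within DZ cells, where few cells were in G1, S and G2M cells were compared in a test added after the other results were seen. Klf6 stood at 31.5, 27.6 and 28.5 CPM in S cells and 47.7, 47.1 and 46.2 CPM in G2M cells of the CD45.2 sort (log2 fold change of G2M over S 0.67, SE 0.143, edgeR adjusted p = 0.000104; 0.084 under DESeq2). In the CD45.1 sort it had a lowest, median and highest value of 9.26, 26.6 and 29.2 CPM in S against 39.6, 64.4 and 76.4 CPM in G2M cells (1.26, SE 0.22, adjusted p = 8.2e-06). No S value reached a G2M value in either sort.

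Btg1 was also higher in G2M cells, with 441, 350.4 and 391 CPM in S against 457, 634 and 512 CPM in G2M cells of the CD45.2 sort (0.41, SE 0.0624, adjusted p = 1.15e-08), a call lost without WT group mouse 2 (0.21) and under DESeq2. In the CD45.1 sort Btg1 had 296, 302 and 349 CPM in S against 356, 434 and 526 CPM in G2M cells (0.43, SE 0.0779, adjusted p = 1.47e-05). Tsc22d3 (0.66, SE 0.189, adjusted p = 0.00613) and Klf13 (−0.31, SE 0.108, adjusted p = 0.0298) were called in the CD45.2 sort, but neither was without WT group mouse 1 (0.47 and −0.26) or without WT group mouse 2 (0.58 and −0.28), nor Klf13 without WT group mouse 3 (−0.37). Klf2 was called without WT group mouse 1 (0.47). Thus 4 members were called in the CD45.2 sort, where 17.8% of 8733 genes were called, and 2 in the CD45.1 sort, where 18.1% of 4857 genes were called and 8.07% were called higher.

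The 2 sorts were compared state by state within the 3 WT group mice, and 5 of the 8 members were higher in CD45.2 than in CD45.1 PC/PB cells. Klf2 stood at 84.4, 60.1 and 37.9 CPM in CD45.2 PC/PB cells of mice 1 to 3 (272, 319 and 166 counts) against 8.71, 5.29 and 3.86 CPM in CD45.1 PC/PB cells (6, 7 and 13 counts). Btg1 stood at 272, 266 and 100.4 CPM against 43.6, 43.8 and 5.35 CPM, the latter from 30, 58 and 18 counts. The sorts did not overlap for either gene, and the log2 fold changes were 3.21 for Klf2 (SE 0.204, edgeR adjusted p = 1.86e-09) and 2.89 for Btg1 (SE 0.186, adjusted p = 1.86e-09).

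Tsc22d3 stood at 34.4, 37.5 and 25.3 CPM against 13.1, 12.1 and 8.62 CPM in PC/PB cells (1.41, SE 0.191, adjusted p = 1.87e-05). Klf3 stood at 22.7, 21.5 and 13.003 CPM against 4.36, 9.06 and 5.05 CPM (1.33, SE 0.259, adjusted p = 0.000726). Klf6 stood at 22.97, 20.9 and 23.3 CPM against 20.3, 8.31 and 9.80 CPM (0.89, SE 0.224, adjusted p = 0.00626), a call lost under DESeq2 (0.80) and without WT group mouse 3 (0.62). These 3 genes were higher in the CD45.2 cells of every mouse, with no overlap.

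Btg2, by contrast, stood at 179, 207 and 208 CPM against 184, 191 and 176 CPM in PC/PB cells, with overlapping sorts (−0.02, SE 0.0927, adjusted p = 0.93). Klf13 (0.13, adjusted p = 0.457) and Tob1 (−0.47, adjusted p = 0.29) were not called either. Of the 8 members 5 were called, all higher in CD45.2 cells, where 23.5% of 8755 genes were called and 12.2% were called higher. Within the 1 PC/PB cluster that held most cells of the CD45.1 sort (654 CD45.2 and 412 CD45.1 cells) Btg1 (4.03), Klf2 (2.96) and Tsc22d3 (1.02) were called, and Klf3 (0.79) and Klf6 (0.90) were not.

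Other genes moved with the sort in PC/PB cells. All 6 KLF2-linked receptor genes tested were higher in CD45.2 PC/PB cells, among them Gpr183 at 1.504 and S1pr1 at 1.42, and 7 of 16 FOXO-linked genes were higher and 1 lower, among them Bach2 at 3.38. All 7 B-cell markers were higher, with Pax5 at 4.47 and Ms4a1 at 2.31. The summed CPM of 18 EarlyGC1 markers was 1753 on average (1185 to 2169) in CD45.2 and 861 (508 to 1092) in CD45.1 PC/PB cells, with 17 of 18 higher in each mouse. The summed proliferation list was 714 against 1002 CPM, and 6 of 12 of its genes were called lower in CD45.2 cells, with Mki67 at −0.79. The summed T-cell list stood at 13.5 against 4.19 CPM. RNA carried over from other cells of a library was not corrected for in any state, and hashtags do not mark doublets within a mouse. The part of such RNA and of these differences in those of the members was not tested.

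In LZ2 to LZ4 cells Klf2 stood at 349.8, 298 and 185 CPM in CD45.2 against 150.2, 129.9 and 94.3 CPM in CD45.1 cells (1.14, SE 0.126, edgeR adjusted p = 4.13e-10). Btg1 stood at 1347, 1458 and 1059.8 CPM against 983, 988 and 709 CPM (0.53, SE 0.0681, adjusted p = 3.11e-08). The sorts did not overlap for either gene. Btg2 (0.65, SE 0.14, adjusted p = 0.00124) and Tsc22d3 (1.10, SE 0.295, adjusted p = 0.0149) were also called, but not without WT group mouse 1 (0.57 and 1.25) nor without WT group mouse 2 (0.75 and 0.92). All 4 members called were higher in CD45.2 cells, where 4.51% of 5925 genes were called and 2.77% were called higher. Klf3 stood at 39.2, 35.6 and 14.2 CPM against 0, 3.02 and 10.3 CPM, the latter from 0, 2 and 6 counts. Tob1 stood at 23.5, 14.3 and 16.0 CPM against 10.2, 9.06 and 10.3 CPM, the latter from 4, 6 and 6 counts. Neither gene overlapped between sorts, and neither was among those called. The share of all genes without overlap between these sorts was not counted. In these cells 11 of 12 proliferation genes (summed level 636 against 415 CPM), 14 of 20 plasma-cell (PC2) markers (30993.5 against 26101.8 CPM) and 16 of 18 EarlyGC1 markers were higher in CD45.2 cells of each mouse, and their part in the members' differences was not tested.

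In DZ cells Klf2 stood at 97.0, 87.3 and 94.5 CPM in CD45.2 against 39.1, 26.3 and 18.1 CPM in CD45.1 cells (1.84, SE 0.161, adjusted p = 7.14e-12). Btg1 stood at 456, 512 and 466 CPM against 333, 383 and 402 CPM (0.37, SE 0.0625, adjusted p = 4.72e-05). Klf3 stood at 14.2, 11.8 and 13.9 CPM against 5.05, 0 and 0.787 CPM, the latter from 4, 0 and 1 counts, and its fitted change of 2.87 (SE 0.503, adjusted p = 7.55e-05) rests on those few counts. None of the 3 genes overlapped between sorts. Btg2 (0.59, SE 0.13, adjusted p = 0.00185) and Tsc22d3 (0.89, SE 0.257, adjusted p = 0.0261) were called as well, Btg2 not by DESeq2 (adjusted p = 0.0731) and Tsc22d3 not without WT group mouse 1 (0.58). DESeq2 gave no adjusted p for Klf3 and Tsc22d3. All 5 members called were higher in CD45.2 cells, where 5.88% of 9193 genes were called and 3.31% were called higher. The 18 EarlyGC1 markers summed to 1588 CPM in CD45.2 and 1058 CPM in CD45.1 DZ cells, and to 3265 against 1853 CPM in LZ2 to LZ4 cells. In DZ cells 16 of 20 PC2 markers were higher in CD45.2 cells of each mouse and 0 lower, while 2 of 12 proliferation genes were higher and 1 lower. The part of these lists in the members' differences was not tested.

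Klf2 went the other way in Activated/Memory cells, at 797, 754 and 644 CPM in CD45.2 against 979, 907 and 793 CPM in CD45.1 cells (−0.37, SE 0.0701, adjusted p = 1.67e-05), lower in each mouse. This call was lost without WT group mouse 3 (−0.35) and without the mouse block (−0.33). Btg1 was higher there, at 1588, 1580.2 and 1429 CPM against 1172, 819.8 and 945 CPM (0.53, SE 0.0625, adjusted p = 5.08e-15). These 2 members were called, where 3.05% of 7729 genes were called. In these cells 10 of 12 proliferation genes (summed level 282 against 118 CPM) and 17 of 20 PC2 markers (33144 against 26310.3 CPM) were higher in CD45.2 cells of each mouse and 0 lower, and their part was not tested. In EarlyGC1 cells 0 of 7 members were called, with 2.17% of 4834 genes called. Klf2 there stood at 1069.7, 951 and 1014 CPM against 1209.9, 1212 and 995 CPM (−0.21, SE 0.0911, adjusted p = 0.33). EarlyGC1 markers summed to 9854 CPM in CD45.2 and 10504 CPM in CD45.1 EarlyGC1 cells, so the 2 sorts were near each other on that list in that state. On other lists they were not. In EarlyGC1 cells 13 of 20 PC2 markers and 6 of 12 proliferation genes were higher in CD45.2 cells of each mouse and 0 lower. The part of these lists was not tested.

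Over all non-plasma cells Btg1 stood at 1253, 1293 and 963 CPM in CD45.2 against 747, 754 and 713 CPM in CD45.1 cells (0.64, SE 0.0769, edgeR adjusted p = 0.00152). Btg2 (0.61, SE 0.105, adjusted p = 0.0121) and Tsc22d3 (0.66, SE 0.129, adjusted p = 0.0207) were higher as well, and the sorts did not overlap in these 3 genes. All 3 calls were lost without WT group mouse 1 (0.58, 0.50 and 0.52), and without WT group mouse 3 the calls numbered 6, with Klf2 at 0.56, Klf3 at 0.92 and Klf13 at 0.32 added. Klf2 stood at 575, 511 and 392 CPM against 380.02, 359.9 and 440.2 CPM (0.30, SE 0.128, adjusted p = 0.239). Of all 10476 genes 3.15% were called and 1.73% were called higher. EarlyGC1 cells made up 30.4%, 24.9% and 10.8% of the non-plasma cells of the CD45.2 sort in mice 1 to 3 against 12.7%, 6.95% and 6.04% of those of the CD45.1 sort, and the part of this share in the differences was not tested.

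The difference between the sorts was itself larger in PC/PB than in non-plasma cells for Klf2, by 3.05 on the log2 scale (SE 0.37, edgeR adjusted p = 2.57e-05), and for Btg1, by 2.29 (SE 0.433, adjusted p = 0.00183; 0.0502 under DESeq2). For Btg2 it was smaller by −0.68 (SE 0.153, adjusted p = 0.00712), a call lost without WT group mouse 1 (−0.52) and without WT group mouse 2 (−0.63). Tsc22d3 was at the threshold (0.76, SE 0.243, adjusted p = 0.0499) and was not called when any 1 of the 3 mice was left out (0.94, 0.72 and 0.52). With 4 members called, 11.8% of 9983 genes were called in this test, which was added after the separate comparisons were seen.

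**Figure D4:**
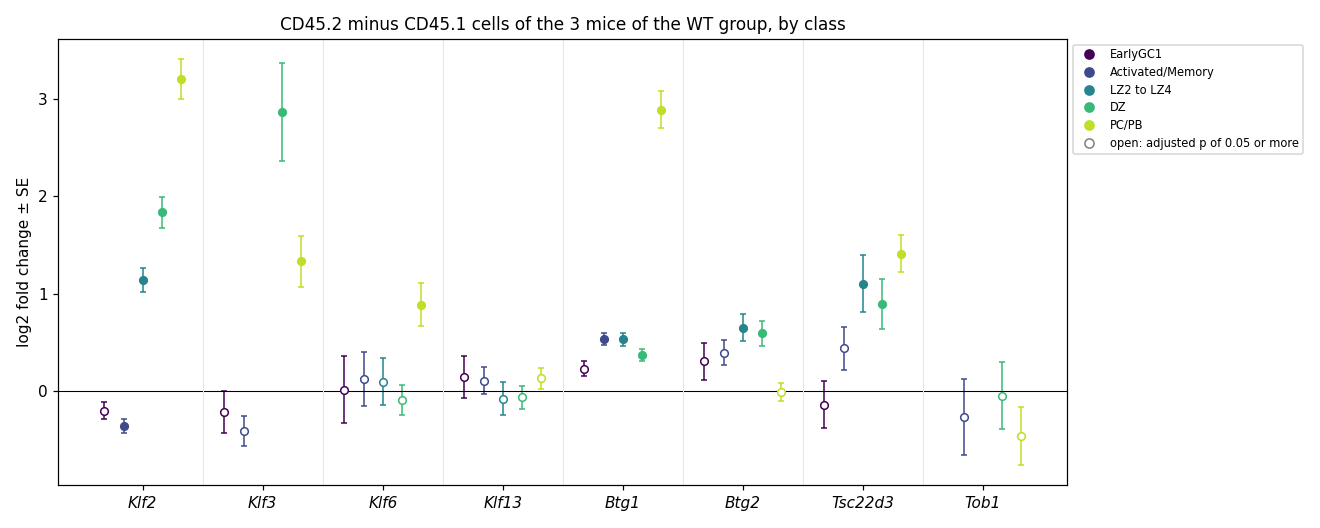
Log2 fold change of CD45.2 over CD45.1 cells of the 3 WT group mice for each gene and state (points, with bars of ± SE), with filled points for an adjusted p under 0.05. In PC/PB cells Klf2 reaches 3.21 and Btg1 2.89 while Btg2 sits at −0.02, and Klf2 is below 0 in Activated/Memory cells at −0.37.

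Dock8cpm/cpm and Dock8wt/wt CD45.2 cells outside the plasma-cell and T-cell clusters were compared over 3 mice each, with only 56, 37 and 88 Dock8cpm/cpm cells. Of the 8 members 0 were called, with 0.185% of 10244 genes called. Klf2 stood at 488, 435 and 503 CPM in Dock8cpm/cpm against 575, 511 and 392 CPM in Dock8wt/wt mice (−0.16, SE 0.122, edgeR adjusted p = 0.807). Btg1 stood at 1364, 1109 and 1488 CPM against 1253, 1293 and 963 CPM (0.07, SE 0.107). The groups overlapped in both genes.

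Klf6 and Btg2 were the members whose groups did not overlap. The share of all genes without overlap was not counted, so this has no baseline. Klf6 stood at 85.4, 51.0 and 65.5 CPM in Dock8cpm/cpm against 44.6, 47.9 and 37.9 CPM in Dock8wt/wt mice (0.52, SE 0.184, adjusted p = 0.387). Btg2 stood at 113, 136 and 136 CPM, from 41, 40 and 85 counts, against 172, 179 and 139 CPM (−0.45, SE 0.139, adjusted p = 0.256), and was called without the filter on low counts (−0.49) and without WT group mouse 3 (−0.54). Tsc22d3 stood at 77.2, 54.4 and 79.9 CPM against 63.3, 57.7 and 45.3 CPM (0.28, SE 0.192), and Klf3 at 49.6, 30.6 and 68.7 CPM against 77.0, 72.4 and 54.5 CPM (−0.45, SE 0.222, adjusted p = 0.646). Tob1 rested on 8, 2 and 7 counts in the Dock8cpm/cpm mice.

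By state, in tests added later, EarlyGC1 cells (16, 15 and 32 Dock8cpm/cpm cells) gave Klf6 at 189, 79.7 and 116 CPM, from 17, 7 and 20 counts, against 51.5, 58.6 and 62.1 CPM (1.08, SE 0.269, adjusted p = 0.0706). Btg2 there stood at 88.9, 239 and 139 CPM against 248, 251 and 245 CPM (−0.80, SE 0.206, adjusted p = 0.0842). Neither passed the threshold, though both did without WT group mouse 2 (1.11 and −0.80) or without WT group mouse 3 (1.11 and −0.81), and Btg2 did without mouse 2 of the DOCK8-deficient group (−1.13). The background was 0.306% of 5236 genes called. LZ2 to LZ4 cells could be compared only under the simpler hashtag rule, which kept 64, 15 and 55 Dock8cpm/cpm cells of that state. Under the main hashtag calls the state held 9, 4 and 11 Dock8cpm/cpm cells. The CD45.2 barcodes that the simpler rule adds were called hashtag doublets in the main calls. RNA of a second cell in them was not tested for. Klf2 in LZ2 to LZ4 cells under the simpler rule stood at 688, 692 and 708 CPM in Dock8cpm/cpm against 515, 431 and 272 CPM in Dock8wt/wt mice (0.72, SE 0.141, adjusted p = 0.00701), without overlap. It was the 1 member called, with 0.323% of 5889 genes called. Under this rule the state held 2 clusters, with 573 and 369 CD45.2 cells, and the latter, named LZ4, had 1 LZ4 marker among its top 10 genes and 9 of 50 in all, with EarlyGC1 next at 6 of 50. Dock8wt/wt Klf2 was 349.8, 298 and 185 CPM in LZ2 to LZ4 where that state was 1 cluster. The part of the mix of clusters in this difference was not tested. Under the simpler rule Btg2 in LZ2 to LZ4 cells stood at 209, 140 and 212 against 193, 192 and 196 CPM, with overlapping groups. Klf2 in LZ1 cells under that rule stood at 188, 203 and 305 against 232, 262 and 200 CPM. Without that rule Klf2 in DZ cells stood at 128, 66.0 and 41.7 against 97.0, 87.3 and 94.5 CPM. The Klf2 groups overlapped in LZ1 and in DZ cells.

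The CD45.1 sort held Dock8wt/wt cells in both groups, and its comparison asks whether bystander cells differ with the genotype of their CD45.2 partners. Klf2 stood at 237, 317 and 279 CPM in the DOCK8-deficient group against 380.02, 359.9 and 440.2 CPM in the WT group (−0.55, SE 0.112, edgeR adjusted p = 0.222). Klf3 stood at 22.8, 31.7 and 31.3 CPM against 39.6, 39.9 and 58.0 CPM (−0.79, SE 0.186, adjusted p = 0.286), and Tob1 at 3.58, 7.61 and 8.07 CPM against 12.2, 9.97 and 11.4 CPM (−0.87, SE 0.311, adjusted p = 0.618). The groups did not overlap in these 3 genes, but edgeR called 0 of 8676 genes (0%; 607 at an unadjusted p under 0.05). Here too the share of all genes without overlap was not counted. Without the filter on low counts Klf2 and Klf3 were called, as was Klf2 without WT group mouse 2 (−0.63).

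EarlyGC1, EarlyGC2 and Activated/Memory cells together held 15.3%, 23.8% and 18.1% of CD45.1 non-plasma cells in the DOCK8-deficient group against 30.8%, 21.7% and 41% in the WT group. The groups overlapped in this share, and its part in the Klf2 difference was not tested. Within single states Klf2 differed by −0.13 in LZ2 to LZ4, −0.07 in Activated/Memory, −0.10 in EarlyGC1, −0.05 in EarlyGC2 and 0.29 in DZ cells. In the CD45.2 sort the share was 30.4%, 48.6% and 50% in Dock8cpm/cpm against 63.3%, 47.1% and 50.5% in Dock8wt/wt mice. The 2 comparisons differed from each other in 0 members, with 0.0344% of 8714 genes called. For Klf2 the difference between them was 0.43 (SE 0.167, adjusted p = 0.779).

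**Figure D5:**
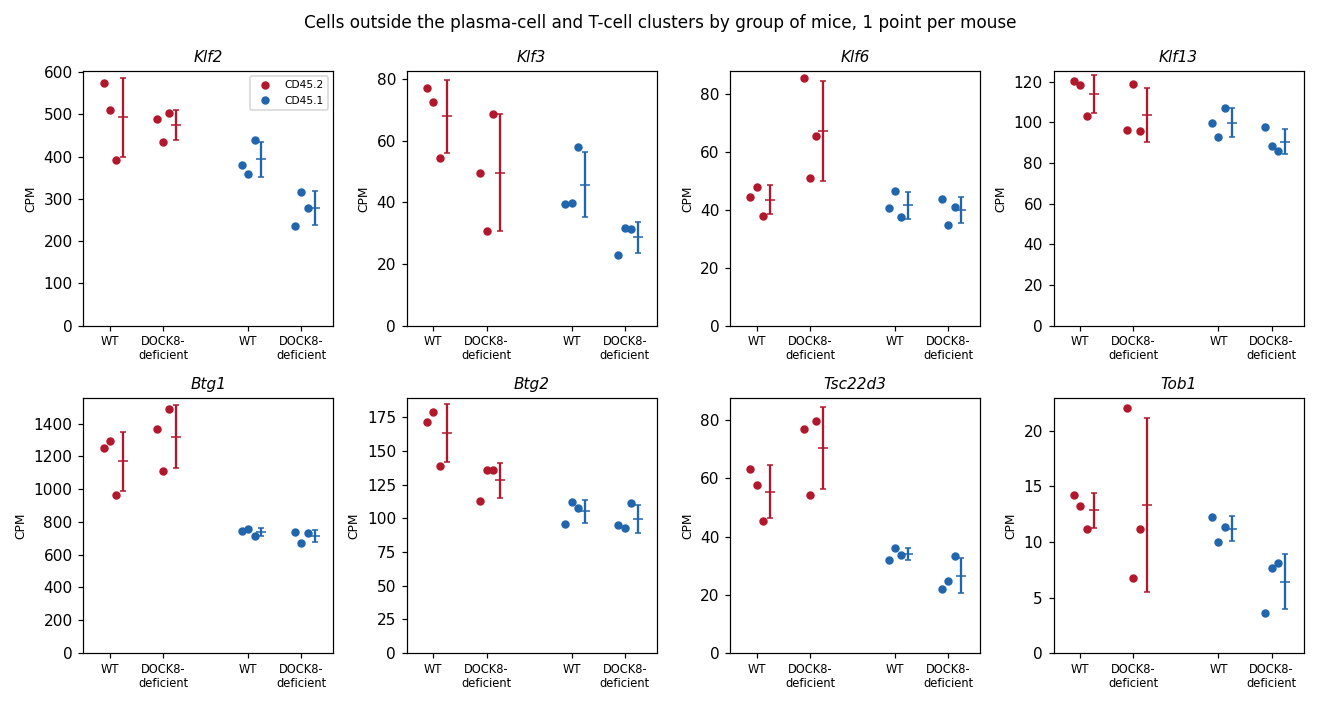
CPM of each gene in cells outside the plasma-cell and T-cell clusters, with 1 point per mouse and the mean ± SD of 3 mice beside each group, red for CD45.2 and blue for CD45.1. The CD45.2 groups of Klf2 overlap (435 to 503 against 392 to 575 CPM), while the CD45.1 groups do not (237 to 317 against 359.9 to 440.2 CPM).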

How the data were processed

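Cells were sorted from the spleens of 6 mice and profiled by droplet 3′ RNA sequencing, with 2 mRNA libraries and 2 hashtag libraries deposited as 4 samples. The deposited matrices hold UMI counts per gene and cell and hashtag counts per cell, made by the authors with Cell Ranger 5.0.1 and Seurat 4.0 (submitters' processing notes) on mm10, with no normalization. All else was computed here. Hashtags were called with HTODemux (Seurat 5.3.0, quantile 0.99), which marked 8048 of 14617 CD45.2 and 1562 of 4857 CD45.1 barcodes as doublets; these were removed and no other doublet caller was run. Cells with 100 to 5500 genes and at most 10% mitochondrial UMIs were kept. Cells were clustered after sctransform 0.4.2 at resolution 0.9 without the 8 members and named from marker genes taken from the study. Phases were called at 2000 UMIs per cell from 42 S and 52 G2M genes, leaving out 135 CD45.2 and 120 CD45.1 cells under that depth, and 845 of 6353 and 263 of 3084 phased cells lay near the boundary between calls.

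Counts were summed per mouse and state or phase (at least 20 cells for levels and sorts, 10 for phases and for single states of the Dock8 groups, and no minimum for the Dock8 groups over all states) and tested across all genes with edgeR 4.0.16 (R 4.3.3, quasi-likelihood, TMM, low counts filtered), two-sided, with Benjamini-Hochberg adjustment and a threshold of 0.05. Phase and sort comparisons had the mouse as a block, because 1 animal gives both sums. DESeq2 1.42.0, no filter, no replicate block, leaving out each mouse, a simpler hashtag rule that needs a 3-fold lead, stricter cell limits, another resolution, 1 PC/PB cluster and unthinned phases were alternatives. On simulated counts with known changes edgeR recovered 96% of 2-fold changes for the CD45.2 phases, 83.8% for the sorts and 57.7% for the Dock8 groups, and 3.47%, 9.9% and 4.67% of its calls there were unchanged genes. The simulated mice shared 1 mean per gene, with no mouse or state differences. Far fewer genes changed there than were called between the real phases. These rates therefore need not hold for the real comparisons. Totals of 342465 to 18036775 UMIs per mouse and sort set the precision. Floors (3 counts) cover counting error only, while the SDs and SEs also hold variation between mice.

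The members, lists and state names were chosen with earlier results of these data known. The genes named as alike are the 3 with the highest correlation over states, and pathway genes are at most 3 called genes of each list with the smallest p, except for 1 gene that is not reported here. Each hashtag marked 1 recipient mouse.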

Additional observations from a re-analysis of the deposited data

Results flagged for a closer look

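Of 48 groups of 4 to 6 mice checked for a member's level, 5 had 1 mouse far from the others, where chance gives about 1 in 20. In CD45.1 Activated/Memory cells, mouse 1 of the DOCK8-deficient group stood at 48.8 CPM for Klf3 against 101 to 125 CPM in the other 5 mice, and at 201 CPM for Klf13 against 113 to 136 CPM. In the same cells WT group mouse 1 stood at 67.5 CPM for Klf6 against 12.2 to 31.8 CPM. In CD45.1 PC/PB cells WT group mouse 2 stood at 9.06 CPM for Klf3 against 2.75 to 5.05 CPM. In CD45.1 EarlyGC2 cells WT group mouse 3 stood at 166 CPM for Btg2 against 145 to 148 CPM in the other 3. These values rest on 48 counts against 33, 21 and 22. WT group mouse 1, left out there with 17 cells, stood at 168 CPM. The flagged Klf3 values rest on 8 and 12 counts and the flagged Klf6 value on 14.

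The difference between the CD45.2 and CD45.1 sorts itself differed between PC/PB and non-plasma cells in 4 members, by edgeR's test of the interaction: Klf2 by 3.05, Btg1 by 2.29, Tsc22d3 by 0.76 and Btg2 by −0.68 on the log2 scale. Klf2 in Activated/Memory cells (−0.37), Klf3 in Activated/Memory cells (−0.42) and Klf3 in EarlyGC1 cells (−0.22) were lower in the CD45.2 cells of every mouse, while in DZ, LZ2 to LZ4 or PC/PB cells the gene was higher in every mouse. The difference between those states was not tested.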

How the results depend on the processing

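Of 2723 member values recomputed, 2623 kept their side of the threshold or moved by no more than the spread, 50 lost a call, 39 gained one, 8 moved by more than the spread and 3 changed sign with a call or beyond the spread. Klf2 in G2M over S cells of the CD45.1 DZ was 0.85 under the 3-fold hashtag rule and 1.04 without thinning, against −0.06. Btg2 in PC/PB over EarlyGC1 cells of the CD45.2 sort was 0.20 (log2) without immunoglobulin genes, a change of sign. With them it stood at 179, 207 and 208 CPM in PC/PB against 248, 251 and 245 CPM in EarlyGC1 cells of WT group mice 1 to 3. Of the 2451 recomputed tests, 110 changed sign without being called and are among the 2623.

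Counts of members called changed as follows, and the cause was not tested. Under DESeq2, 2 were called in the test of PC/PB against non-plasma cells (4 by edgeR) and 0 in S against G2M of the CD45.2 sort (4), where Tsc22d3 got no adjusted p. DESeq2 called 2 in the DZ sorts (5) with 2 of those 5 without an adjusted p, and 2 in the LZ2 to LZ4 sorts (4) with 1 of those 4 without. Over all genes edgeR called 267 in the LZ2 to LZ4 sorts and 541 in DZ, DESeq2 64 and 185. Without the filter on low counts, 5 were called in the non-plasma sorts (3), 1 in EarlyGC1 sorts (0), 1 in the CD45.2 and 2 in the CD45.1 Dock8 comparison (0), 1 in the EarlyGC1 Dock8 comparison (0), and 2 in LZ2 to LZ4 phases of the CD45.1 sort (0). Under the 3-fold hashtag rule, 1 was called in EarlyGC1 sorts, 1 in each LZ2 to LZ4 phase comparison, and 5 in PC/PB phases (3). With unthinned phases, 2 were called in LZ2 to LZ4 of the CD45.1 sort, 5 in PC/PB and 2 in S against G2M of the CD45.2 sort. With the members kept in the clustering, 2 were called in EarlyGC1 sorts. Within 1 PC/PB cluster 3 were called (5).

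Pairing by mouse came from the design, since both sums come from 1 animal. Without the replicate block, 1 member was called in PC/PB phases (3) and 1 in the Activated/Memory sorts (2), and Klf6 lost its call in the CD45.2 phases. Leaving out 1 mouse at a time gave 0 to 6 members in the non-plasma sorts, 1 to 2 in Activated/Memory sorts, 2 to 5 in LZ2 to LZ4 sorts, 2 to 3 in the test of PC/PB against non-plasma cells, 1 to 3 in S against G2M of the CD45.2 sort, 0 to 1 in both Dock8 comparisons and 0 to 2 in the EarlyGC1 Dock8 comparison. The Dock8cpm/cpm sums are the least deep, and differences in Tob1 or in Klf3 of the GC states were not detectable at this depth.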
